A study of Mus musculus with 11 samples.

Results

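Transcripts of 10 integrin subunits were examined in mouse liver: the alpha chains *Itga1*, *Itga5*, *Itga6*, *Itga8*, *Itga9*, *Itgav* and *Itgal*, and the beta chains *Itgb1*, *Itgb2* and *Itgb5*. They were taken by gene symbol from a table of 13669 genes, and all 10 were among the 13334 genes with enough reads to be tested. Whole livers came from male wild-type C57BL/6J mice kept on regular chow, and each animal carried a recombinant adeno-associated virus of serotype 8 given into the tail vein. In 6 animals (AAV-TuD) the virus expressed a tough decoy, an RNA that pairs with both *miR-379* and *miR-541* and holds these microRNAs back from their targets. In the other 5 (AAV-NC) it expressed a negative control sequence, so both groups carried a vector. Expression from the vector was under the liver-specific LP1 promoter, which acts in hepatocytes, whereas the libraries were made from all cells of the liver. The age of each animal and its time after injection are not given for these libraries. The comparison asks how livers with the decoy differ from controls. The study describes the decoy as also acting on the cluster transcripts *lncMGC* and *Mirg*, from which further microRNAs arise, so the treatment is not limited to the pair named and their effects cannot be told apart here.

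Integrins are receptors made of one alpha and one beta chain that span the cell membrane and bind proteins of the extracellular matrix or of neighbouring cells. Inside the cell their tails are bound by talins and kindlins, which switch the receptor on and tie it to actin, and signals pass on through kinases such as FAK and SRC. In the liver, integrins are carried by hepatocytes, sinusoidal endothelial cells, stellate cells and resident or passing leukocytes, and they are best known there for cell attachment to the matrix, for activation of latent TGF-beta and for leukocyte arrest.

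The microRNAs the decoy was built to bind are shown first, with bases 2 to 8, the seed that pairs with target transcripts, in capitals (RefSeq, GRCm38.p6). They share no seed.
miR-379-5p: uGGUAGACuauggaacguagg
miR-541-5p: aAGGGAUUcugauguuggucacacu
Letters complementary to these seeds were searched in 3′ UTRs, taking for each gene the longest one annotated (GENCODE M21, GRCm38). Among the 10 subunits, *Itga1* alone held any: 3 matches to the miR-541-5p seed, AATCCCT, in a 3′ UTR of 6994 bases on the minus strand of chromosome 13. Among other integrin subunits measured, *Itga4* held 1 match to the miR-541-5p seed and *Itgb8* held 1 match to each seed. The *Itga1* matches are shown in capitals with their flanks because no other described subunit had a match.
*Itga1*, chr13:114958822-114958846: ttcctgaaatAATCCCTgaggcccg
*Itga1*, chr13:114954499-114954523: aagactcagaAATCCCTcacttatc
*Itga1*, chr13:114954235-114954259: gttcatgagtAATCCCTggagatac
Of 10928 tested genes with an annotated 3′ UTR, 978 (8.95%) held the miR-541-5p letters and 568 (5.2%) held those of miR-379-5p, GTCTACC. The median 3′ UTR was 1215 bases long, so the length of that of *Itga1* bears on its count. Among 460 genes with 3′ UTRs of 5000 to 9000 bases, 141 (30.7%) held at least 1 miR-541-5p match and 2 (0.435%) held at least 3. *Itga1* was itself 1 of these 2, and the limit of 3 is its own count, so that share is a description and no test. Genes with a miR-541-5p match were higher in AAV-TuD livers in 9.3% of cases, against 8.3% of those without one. A match of letters is a description and does not show binding.

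The libraries read transcript 3′ ends, and each held 8148531 to 12043959 reads over genes. Values are given as CPM, the reads of a gene relative to the total of its library, scaled by the trimmed mean of M-values (TMM), which discounts a few very abundant transcripts, and 1 CPM stood for about 7.94 to 12.4 reads. That scaling bears on all values here, because the major urinary protein genes took from 8.58% to 40.2% of a library's reads, with the highest share in AAV-NC replicate 7. The tissue matched its label: *Alb*, which encodes serum albumin, was the most abundant of 10 hepatocyte markers at 21096 ± 2304 CPM (SD, n = 5) in AAV-NC livers. Replicates were separate livers by their labels, with 1 library each.

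Of the 10 subunits, 4 were higher in AAV-TuD livers (*Itga1*, *Itga9*, *Itgb5* and *Itgal*) and none was lower (edgeR quasi-likelihood test, adjusted p under 0.05), and the other 6 did not pass the test. Over all 13334 genes, 966 (7.24%) were higher and 577 (4.33%) were lower. The median log2 fold change of the 10 subunits was 0.37, beside −0.0024 over all genes. *Itga8* and *Itgb2*, whose estimates enter the first median, had 4 to 11 and 3 to 16 reads in AAV-NC livers. They met the filter of more than 10 reads in 5 livers mainly through AAV-TuD livers. Over all tested genes the median was 0.11 in the tenth with fewest reads, which held both, and −0.12 in the tenth with most. In 2 subunits, *Itga1* and *Itga9*, the AAV-TuD livers all exceeded the AAV-NC livers, which was true of 548 genes (4.11%). The count of 4 fell to 1, *Itga9*, when AAV-TuD replicate 4, AAV-NC replicate 6 or AAV-NC replicate 7 was left out. It fell to 2 without AAV-TuD replicate 9 (*Itga9* and *Itgal*) or AAV-TuD replicate 10 (*Itga8* and *Itga9*). In whole tissue, more cells of a type and more RNA per cell cannot be told apart.

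**Figure D1:**
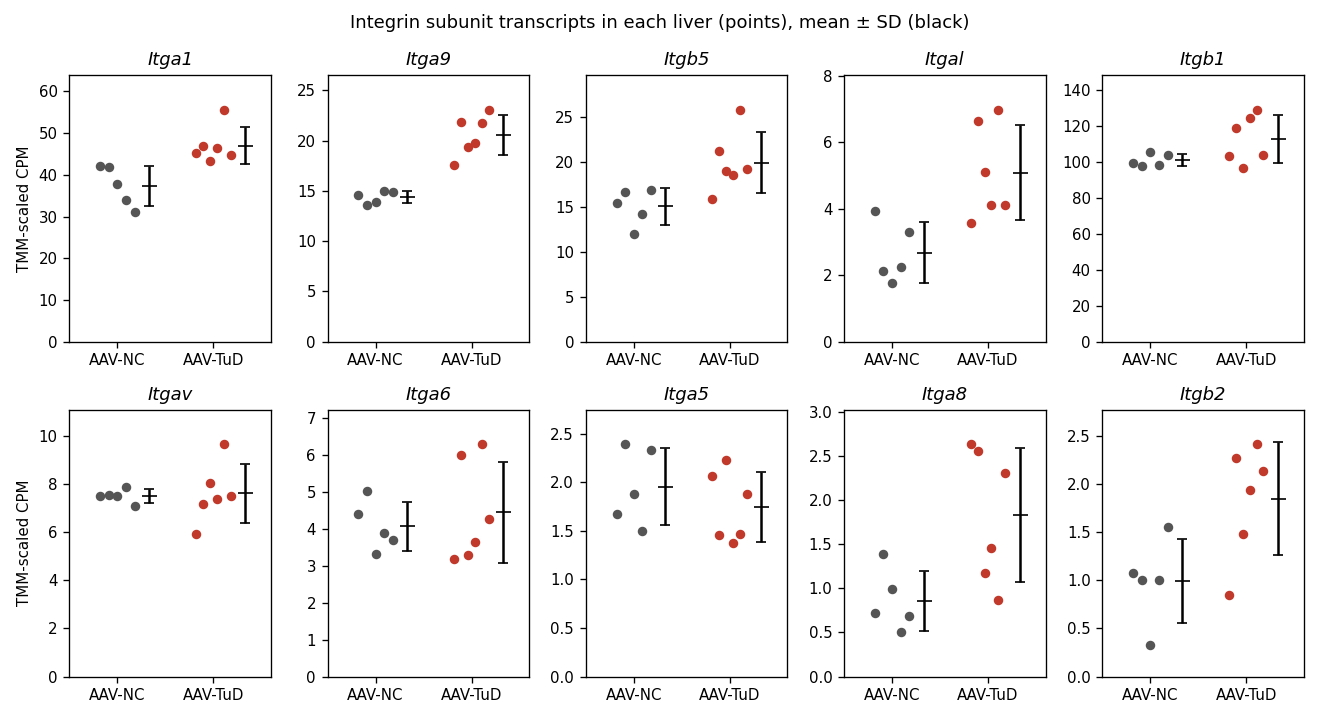
Level of each described subunit in each liver, in TMM-scaled CPM on linear axes that start at 0. Points are the 5 AAV-NC livers (grey) and the 6 AAV-TuD livers (red), and black marks give mean ± SD. The groups are apart for *Itga1* and *Itga9* and overlap for the other 8 subunits.

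**Figure D2:**
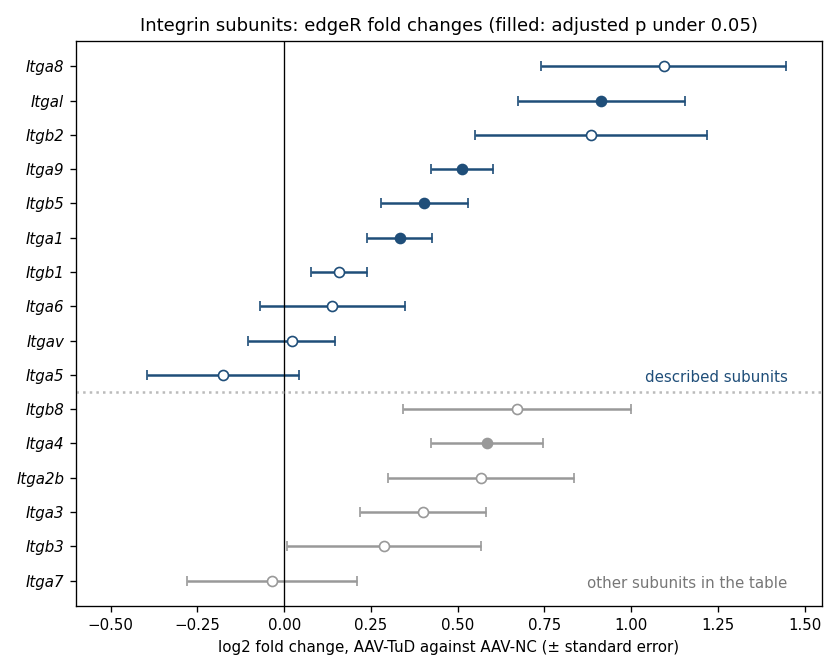
Log2 fold change of AAV-TuD over AAV-NC for the 10 described subunits (blue) and the 6 further subunits in the table (grey), with standard errors from edgeR. Filled points passed at an adjusted p under 0.05. *Itga8* and *Itgb2* have high fold changes with the widest errors among the described subunits and did not pass.

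*Itgb1* encodes the beta 1 chain, which pairs with most alpha chains and was the most abundant subunit measured. In the AAV-NC livers it stood at 99.0, 97.8, 105, 98.0 and 104 CPM (replicates 1, 2, 6, 7 and 8), and in the AAV-TuD livers at 96.3 at the lowest, 111 at the median and 129 at the highest. The groups overlapped, with 3 of 6 AAV-TuD livers above all controls, and the log2 difference of 0.16 (SE 0.08) had an adjusted p of 0.229.

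Its partner alpha 1, encoded by *Itga1*, forms a receptor for collagens and laminins, and was the most abundant alpha chain (chr13:114953096-115101964). *Itga1* stood at 42.1, 41.8, 37.9, 34.0 and 31.0 CPM in the controls, and at 43.2, 45.9 and 55.6 CPM at the lowest, median and highest of the AAV-TuD livers. All AAV-TuD livers exceeded all controls, by a narrow gap. *Itga1* rose by 0.33 on the log2 scale (SE 0.09, edgeR adjusted p 0.0313). The call was lost without any one of AAV-NC replicates 6, 7 and 8 or AAV-TuD replicates 4, 9 and 10, with adjusted p-values from 0.0509 to 0.0744, while the log2 difference remained between 0.27 and 0.38 in all 11 such fits. The reads assigned to *Itga1* can include those of *Gm49395*, an annotated gene on the same strand that shares exons with it.

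*Itga9* encodes alpha 9, which pairs with beta 1 and binds tenascin, osteopontin and VCAM1. Its levels in the controls were close together, at 14.6, 13.6, 13.9, 15.0 and 14.9 CPM. In AAV-TuD livers *Itga9* ran from 17.6 through a median of 20.7 to 23.1 CPM. The groups did not overlap. *Itga9* rose by 0.51 on the log2 scale (SE 0.09, adjusted p 0.00275). It was the one member called in every setting tried, with log2 differences of 0.48 to 0.56 when single livers were left out.

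The remaining beta 1 partners were less abundant. *Itga6*, whose product binds laminins, averaged 4.07 ± 0.668 CPM in controls and 4.45 ± 1.37 CPM in AAV-TuD livers (SD, n = 5 and 6), a log2 difference of 0.14 (SE 0.21, adjusted p 0.733). *Itga5*, the alpha chain of the classical fibronectin receptor, was the one member with a negative estimate, −0.18 (SE 0.22, adjusted p 0.666), at 1.96 ± 0.396 against 1.75 ± 0.362 CPM. The groups overlapped for both, and *Itga5* rested on 12 to 24 reads per library.

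*Itga8* encodes alpha 8, a partner of beta 1 that binds RGD-containing proteins such as nephronectin and is carried by contractile mesenchymal cells. Its levels were 0.716, 1.38, 0.996, 0.501 and 0.681 CPM in controls and ran from 0.862 through 1.88 to 2.63 CPM in AAV-TuD livers. Of the 6 AAV-TuD livers, 4 lay above all controls. The log2 difference of 1.09 was the largest among the members, but its SE was 0.35, the counts were 4 to 28 reads per library, and the adjusted p of 0.0564 missed the threshold. It passed with DESeq2 (adjusted p 0.0417) and without AAV-NC replicate 2, AAV-TuD replicate 5 or AAV-TuD replicate 10. *Itga8* shares exons with an antisense gene, *E030013I19Rik*, and the strand setting of the counting is not given in the sources used here, so their reads cannot be told apart.

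*Itgav* and *Itgb5* encode alpha v and beta 5, which together form a receptor for vitronectin that can also act on latent TGF-beta. *Itgav* overlapped between the groups, at 7.52, 7.55, 7.53, 7.89 and 7.11 CPM in controls and at 5.92, 7.45 and 9.66 CPM at the lowest, median and highest of AAV-TuD livers. The log2 difference was 0.02 (SE 0.13, adjusted p 0.938), and its sign turned in the voom fit and without AAV-TuD replicate 10. *Itgav* shares exons with *Gm13684* on the opposite strand, so its level, ratios and share may include reads of that gene. *Itgb5* stood at 15.5, 16.7, 12.0, 14.3 and 16.9 CPM in controls and at 15.9, 19.1 and 25.9 CPM at the lowest, median and highest of AAV-TuD livers. The lowest AAV-TuD liver lay within the control range and the other 5 above it. *Itgb5* rose by 0.40 on the log2 scale (SE 0.13) with an adjusted p of 0.0493, close to the threshold. This call was lost in 9 of the 11 fits that left out 1 liver, all but those without AAV-NC replicate 8 or AAV-TuD replicate 3, with adjusted p-values up to 0.120, and also with DESeq2 size factors (0.0510) and with no filter on low counts (0.0504).

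*Itgal* and *Itgb2* encode alpha L and beta 2, the chains of LFA-1, a receptor of leukocytes for ICAM proteins. *Itgal* stood at 3.94, 2.14, 1.77, 2.25 and 3.31 CPM in controls, and at 3.57, 4.61 and 6.99 CPM at the lowest, median and highest of AAV-TuD livers. All but the lowest AAV-TuD liver, replicate 3, lay above every control. *Itgal* rose by 0.91 on the log2 scale (SE 0.24, adjusted p 0.0231). The call was lost without any one of AAV-NC replicates 2, 6 and 7 or AAV-TuD replicates 4 and 10, at adjusted p-values of 0.0528 to 0.0605.

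*Itgb2* stood at 1.07, 1.01, 0.332, 1.001 and 1.56 CPM in controls and ran from 0.845 through 2.04 to 2.41 CPM in AAV-TuD livers. The groups overlapped, with 4 of 6 AAV-TuD livers above all controls. Its log2 difference of 0.88 was close to that of *Itgal* but had an SE of 0.33 on 3 to 28 reads per library, and the adjusted p was 0.1002. It passed without AAV-TuD replicate 3 (adjusted p 0.0339).

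Most markers tested from a Kupffer cell list and from a joint neutrophil and monocyte list were also higher in AAV-TuD livers. Of 10 Kupffer cell markers, 7 rose, and their summed level ran from 126 to 186 CPM in controls and from 141 to 399 CPM in AAV-TuD livers. *Csf1r*, the receptor of the macrophage growth factor CSF1 and the most abundant of them, went from 24.7 ± 5.36 to 48.6 ± 18.1 CPM (adjusted p 0.0116). Of 5 neutrophil and monocyte markers tested from a list of 10, 4 rose, with sums of 28.0 to 43.7 and 46.3 to 108 CPM. The most abundant of these, *Lyz2*, which encodes lysozyme, rose from 14.8 ± 5.81 to 37.4 ± 14.6 CPM (adjusted p 0.00537). Another of the 4, *Ccr2*, averaged 0.779 CPM in AAV-NC livers and met the filter on reads mainly through AAV-TuD livers. *S100a9*, the marker of that list that did not pass, stood at 1.10 ± 0.853 and 1.43 ± 0.596 CPM (edgeR adjusted p 0.684). The AAV-TuD liver with the lowest *Itgal*, *Itgb2* and Kupffer cell sum was the same, replicate 3, and the one with the highest of all 3 was replicate 10. Among AAV-TuD livers the same held for the summed neutrophil and monocyte, B cell, dendritic cell, stellate cell and sinusoidal endothelial markers. It did not hold for the hepatocyte, cholangiocyte, platelet or portal fibroblast sums. The order was thus not particular to Kupffer cells. None of the 12 T and NK cell markers was in the table, so *Itgal* could not be set beside them. Of the B cell list 2 of 8 genes were tested, and *Cd74*, an antigen presentation chaperone also made by macrophages, rose from 21.1 ± 5.36 to 45.6 ± 17.9 CPM. The other, *Ighm*, the heavy chain of IgM, did not pass and had an estimate of the opposite sign, at 4.99 ± 2.14 and 3.55 ± 1.01 CPM (log2 difference −0.48, adjusted p 0.291). The part of these cells in the result for *Itgal* was not tested.

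Several markers of matrix-forming cells were higher too. Of 12 stellate cell markers, 6 rose, and their sum ran from 259.9 to 319 CPM in controls and from 401 to 531 CPM in AAV-TuD livers, without overlap. *Dcn*, a collagen-binding proteoglycan and the most abundant of them, rose by 0.79 on the log2 scale (adjusted p 0.000231). The other 6 stellate cell markers did not pass, and *Hhip* among them had an estimate of the opposite sign (log2 difference −0.25, edgeR adjusted p 0.660). None of 10 sinusoidal endothelial markers passed the test, and their sums were 199 to 237 and 202 to 219.7 CPM, with the VEGF receptor gene *Kdr* the most abundant at 53.3 ± 5.86 and 52.3 ± 1.96 CPM. Of 5 cholangiocyte markers tested from a list of 9, 4 rose, led in abundance by *Sox9* at 22.9 ± 6.94 and 40.1 ± 5.53 CPM. The others that rose, *Epcam*, *Krt19* and *Cdh6*, averaged 0.664, 0.797 and 0.852 CPM in AAV-NC livers. They met the filter on reads mainly through AAV-TuD livers. Whether stellate cells or cholangiocytes had a part in the higher *Itga1*, *Itga9* and *Itgb5* was not tested. Of 10 hepatocyte markers, 2 were lower and none higher, with sums of 41026 to 47270 CPM in controls and 49975 to 57946 CPM in AAV-TuD livers. Most of the difference between these sums lay in *Alb*, at 21096 ± 2304 and 28044 ± 2727 CPM (adjusted p 0.0805), and *Ahsg*, which encodes fetuin A, at 5272 ± 635 and 6620.0 ± 813 CPM (adjusted p 0.106). Neither passed the test, and the median log2 fold change of the list was −0.07.

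The smaller lists held few measured genes. *Eln*, of 2 genes tested among 7 for portal fibroblasts and smooth muscle, rose by 1.23 on the log2 scale (adjusted p 0.0201). *Pf4*, the 1 platelet marker tested of 5, rose by 1.03 (adjusted p 0.0342). *Eln* and *Pf4* averaged 0.859 and 0.841 CPM in AAV-NC livers, and met the filter on reads mainly through AAV-TuD livers. Neither of 2 dendritic cell markers tested of 8 passed, with *Zbtb46* the most abundant at 6.17 ± 1.54 and 6.23 ± 0.706 CPM. None of the 4 mesothelial markers was in the table.

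Livers within one group differed in their subunit levels. Among AAV-TuD livers, replicate 10 had the highest value for 7 of the 10 subunits and replicate 3 the lowest for 6, whereas over all tested genes replicate 10 was the highest for 20.5% and replicate 3 the lowest for 20.1%. *Itgb1* and *Itgav* varied more among AAV-TuD livers than among controls, with coefficients of variation of 11.7% against 3.45% for *Itgb1* and of 16.1% against 3.69% for *Itgav*. Over the 8372 genes that averaged 50 reads or more, the median coefficient was 12.4% in AAV-NC and 12.2% in AAV-TuD livers, and 2.38% of genes had one more than 3 times as high with AAV-TuD.

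A ratio of alpha to beta reads within 1 liver does not depend on the scaling of that library, and 8 ratios of chains known to pair were compared by a two-sided exact permutation test over all divisions of the 11 livers into groups of 5 and 6. The smallest p this design can give is 0.00216. The log2 ratio of *Itga9* to *Itgb1* was −2.80 ± 0.08 in controls and −2.45 ± 0.18 in AAV-TuD livers (SD, n = 5 and 6), a difference of 0.35 with all 6 AAV-TuD livers above all controls (exact permutation p 0.00433, adjusted over 8 ratios 0.0173). The log2 ratio of *Itgav* to *Itgb5* was −0.99 ± 0.23 and −1.38 ± 0.11, a difference of −0.39 with 5 of 6 AAV-TuD livers below all controls (exact permutation p 0.00433, adjusted 0.0173). In the latter ratio the numerator, *Itgav*, did not pass the test by itself, and the denominator, *Itgb5*, did.

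The other 6 ratios did not pass the test. *Itga8* to *Itgb1* differed by 0.85 (adjusted exact permutation p 0.162) and *Itga1* to *Itgb1* by 0.18 (0.173). *Itgal* to *Itgb2* differed by 0.01 (0.976), which does not show that the ratio of the LFA-1 chains was alike, since leaving out single livers moved it from −0.10 to 0.21. With 10 livers the smallest p is 0.00476 or 0.00794, and both ratios that passed had adjusted p-values of 0.0571 or 0.0635 in most such fits. *Itga9* to *Itgb1* passed without AAV-TuD replicate 5 alone, and *Itgav* to *Itgb5* without AAV-TuD replicate 5 or AAV-NC replicate 8.

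**Figure D3:**
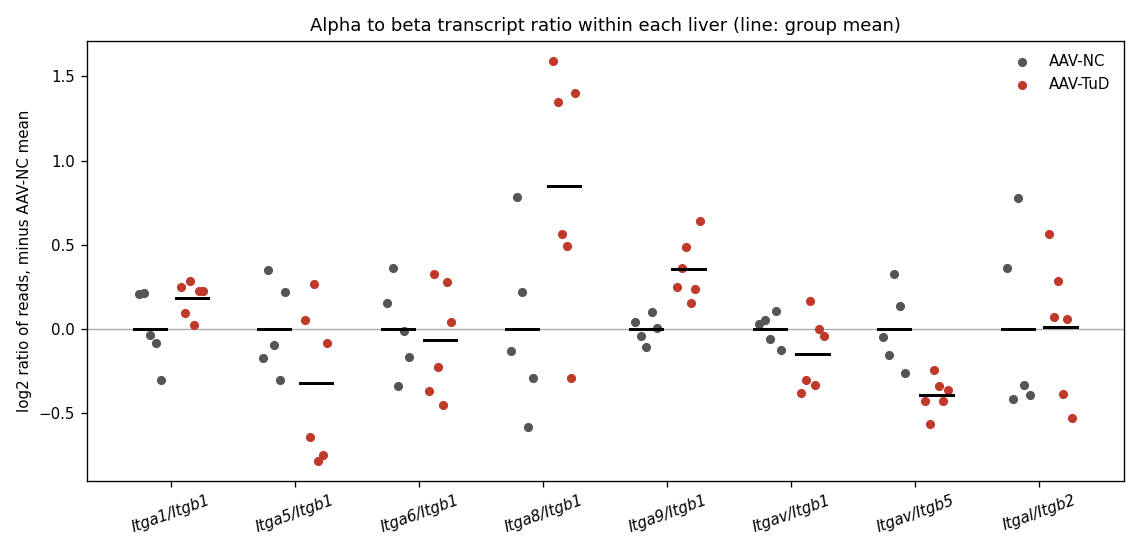
Log2 ratio of alpha to beta chain reads within each liver, for 8 pairs, minus the AAV-NC mean of that pair. Grey points are AAV-NC livers, red points AAV-TuD livers, and black lines group means. The *Itga9* to *Itgb1* ratio is above all controls in every AAV-TuD liver, and *Itgav* to *Itgb5* is below them in 5 of 6.

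Because 3′ end libraries give about 1 read per transcript whatever its length, the reads of different subunits were set side by side as shares. Of the reads of 11 alpha chains in the table, *Itga1* made up 47.1% in controls and 46.2% in AAV-TuD livers, and *Itga9* 18.3% ± 1.66 and 20.2% ± 1.53. *Itgav* made up 9.53% ± 0.540 and 7.47% ± 0.786 of alpha reads, a description without a test, with ranges of 8.97% to 10.3% and 6.40% to 8.35%. A share also depends on the other chains, and the level of *Itgav* itself was 7.52 ± 0.277 and 7.62 ± 1.23 CPM. Of the reads of 5 beta chains, *Itgb1* made up 84.4% ± 2.06 and 81.7% ± 1.46, and *Itgb5* 12.6% ± 1.62 and 14.5% ± 1.53. In controls the order of levels was *Itgb1*, *Itga1*, *Itgb5*, *Itga9*, *Itgav*, *Itga6*, *Itgal*, *Itga5*, *Itgb2* and *Itga8*. The neighbours *Itgb5* and *Itga9*, *Itgal* and *Itga5*, and *Itgb2* and *Itga8* differed by less than their spread. The summed alpha chains ran from 73.6 to 84.2 CPM in controls and from 92.5 to 118 CPM in AAV-TuD livers. The summed beta chains overlapped, at 115 to 124.7 CPM and 119.3 to 161 CPM, with AAV-TuD replicates 3 and 5 within the control range.

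Of the other 16 subunits of the family, 6 were in the table. *Itga4*, the alpha chain of VLA-4, a leukocyte receptor for VCAM1 and fibronectin, rose from 3.23 ± 0.391 to 4.88 ± 0.789 CPM, a log2 difference of 0.58 (SE 0.16, adjusted p 0.0288), and was above all controls in 6 of 6 AAV-TuD livers. The other 5 did not pass: *Itgb8* at 0.67, *Itga2b* at 0.57, *Itga3* at 0.40, *Itgb3* at 0.29 and *Itga7* at −0.04 on the log2 scale. *Itga2*, *Itga10*, *Itga11*, *Itgad*, *Itgae*, *Itgam*, *Itgax*, *Itgb4*, *Itgb6* and *Itgb7* were not analysed here.

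Transcripts of many matrix proteins that integrins bind were higher in AAV-TuD livers. Of 31 matrix ligands tested, 17 (54.8%) were higher and none lower, with a median log2 fold change of 1.04, beside 7.24% higher over all genes. *Col3a1* and *Col1a1*, fibrillar collagens bound by collagen-binding integrins, rose from 9.17 ± 1.36 to 34.4 ± 8.08 CPM (adjusted p 1.52e-05) and from 2.90 ± 0.667 to 14.2 ± 3.96 CPM (adjusted p 3.88e-05). *Col6a3*, a chain of microfibrillar collagen, rose by 1.76 on the log2 scale, and *Spp1*, which encodes osteopontin, a ligand of alpha 9 and of alpha v receptors, rose by 2.20 (adjusted p 0.000118). The hepatocyte-made plasma ligands were not among them: *Fn1*, fibronectin, had a log2 difference of −0.21 (adjusted p 0.138), and *Vtn*, vitronectin, one of −0.16 (adjusted p 0.263). The last 2 were chosen after their values were seen.

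On the cell surface, 4 of 16 ligands and lateral partners tested (25%) were higher and 1 was lower. *Vcam1*, the endothelial and stromal ligand of alpha 4 and alpha 9, rose from 10.4 ± 1.44 to 22.8 ± 5.43 CPM (adjusted p 0.000552). *Cd63*, a tetraspanin, rose by 1.92 and *Cd44*, a hyaluronan receptor, by 1.06 on the log2 scale. *Bsg*, basigin, rose by 0.36. *Sdc4*, syndecan 4, a proteoglycan that acts beside integrins at focal adhesions, fell by 0.40 on the log2 scale (adjusted p 0.0344).

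Inside the cell, 3 of 29 activators and actin-linking adaptors (10.3%) were higher and none lower, a share near the 7.24% of all genes. They were *Fblim1*, which encodes migfilin, a filamin-binding protein (2.07, adjusted p 0.00206), *Enah*, an actin regulator (1.31, adjusted p 0.0107), and *Tln2*, talin 2 (0.41, adjusted p 0.0390), all on the log2 scale. *Fblim1* averaged 0.652 ± 0.411 CPM in AAV-NC livers and met the filter on reads mainly through AAV-TuD livers. Of 31 signalling genes, 6 (19.4%) were higher and none lower. *Src*, the kinase downstream of integrins, had the smallest p, with a log2 difference of 2.18 (adjusted p 0.00113) on a mean of 11.2 reads per library. *Pak1*, an effector of Rac, rose by 1.24, and *Dock2* and *Rac2*, the Rac activator and Rac protein of blood cells, rose by 1.002 and 1.116. *Apbb1ip* and *Arhgef6* completed the 6. These lists are described by their counts and medians without a test of the list.

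**Figure D4:**
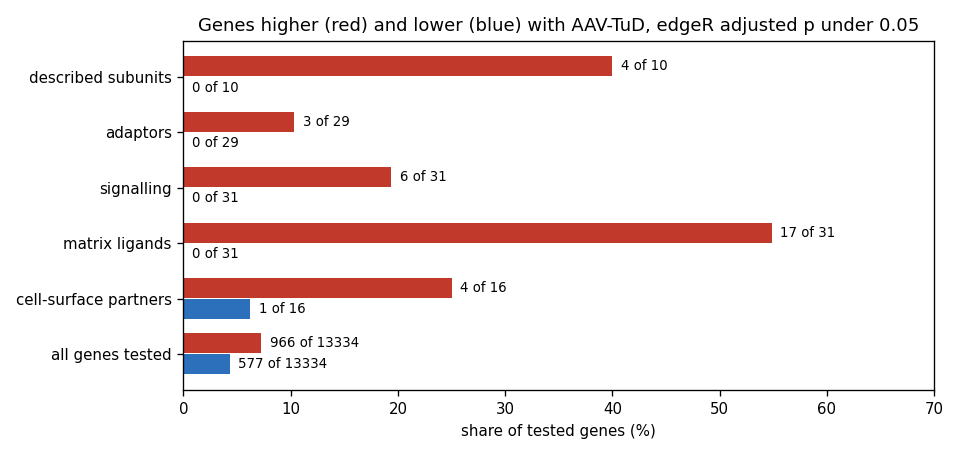
Share of tested genes that were higher (red) or lower (blue) in AAV-TuD livers, for the described subunits, 4 lists of integrin partners and all genes, from edgeR at an adjusted p under 0.05, with the counts beside each bar. Matrix ligands have the highest share, 17 of 31, and adaptors stand near all genes.

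For the 3 of the 10 described subunits with the smallest p, the genes with the most similar profile over the 11 livers were named, by the root mean square difference of log2 CPM centred on each gene's mean, among 8372 genes. Nearest to *Itga9* were *Atp9a*, *Tsc22d4* and *Arl6ip1*, at 0.1003, 0.103 and 0.103, where the median of all candidates was 0.342. Nearest to *Itga1* were *Cyfip1*, *Nfia* and *Mcu*, at 0.0588, 0.0856 and 0.0942 (median 0.301). Nearest to *Itgal* was *Cybb*, at 0.217, which encodes the phagocyte oxidase subunit and is also one of the neutrophil and monocyte markers, followed by *Aaas* and *Lacc1* at 0.229 and 0.237 (median 0.620). The points share libraries and the group difference, so nearness is a description.

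Promoter windows of 250 bases before to 50 bases after the start were found for 7 of the 10 subunits (RefSeq, GRCm38.p6). Those of *Itga1* and *Itgb5* are printed because both transcripts passed the test and their windows differ in GC boxes, with GGGCGG on either strand in capitals. *Itga1* lies on the minus strand and *Itgb5* on the plus strand, and each is written along its gene.
*Itga1*, chr13:115101915-115102214: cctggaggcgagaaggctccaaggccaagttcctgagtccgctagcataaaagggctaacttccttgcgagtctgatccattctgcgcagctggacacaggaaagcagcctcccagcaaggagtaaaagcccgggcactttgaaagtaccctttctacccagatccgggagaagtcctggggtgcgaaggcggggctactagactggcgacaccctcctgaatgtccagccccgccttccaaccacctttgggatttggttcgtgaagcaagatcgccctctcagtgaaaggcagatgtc
*Itgb5*, chr16:33829415-33829714: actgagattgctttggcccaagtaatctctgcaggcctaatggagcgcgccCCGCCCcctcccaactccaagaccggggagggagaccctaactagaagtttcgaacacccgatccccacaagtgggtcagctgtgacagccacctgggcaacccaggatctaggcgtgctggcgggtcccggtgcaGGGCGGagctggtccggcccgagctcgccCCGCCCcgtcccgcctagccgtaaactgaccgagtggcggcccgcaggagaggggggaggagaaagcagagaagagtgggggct
The *Itga1* window held no GGGCGG, a GC content of 56.7% and 12 CpG dinucleotides, and that of *Itgb5* held 3 GGGCGG, 65.7% and 20. Over 32851 promoters of the same length, 35.7% held GGGCGG, the median GC content was 52.7% and the median CpG count was 7. Neither held the TEAD letters CATTCC, present in 14.7% of promoters on either strand. Neither held the AP-1 letters TGANTCA, present in 7.81%. The TATA box letters TATAAA, present in 13.6%, were also absent from both. Among the 7 windows, TGANTCA occurred once, in that of *Itga9* (chr9:118711442-118711741), which lies inside the gene as GENCODE places it, downstream of its annotated start at 118606690. A match or its absence says nothing here about a factor.

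The number of subunits that passed depended on the scaling. With library size alone, 6 were higher, adding *Itga8* and *Itgb2*, and the median of all genes moved to 0.23 while that of the 10 subunits moved to 0.61, a distance of 0.38 against 0.37 with TMM. In that fit 95.1% of all calls were higher, against 62.6% with TMM.

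**Figure D5:**
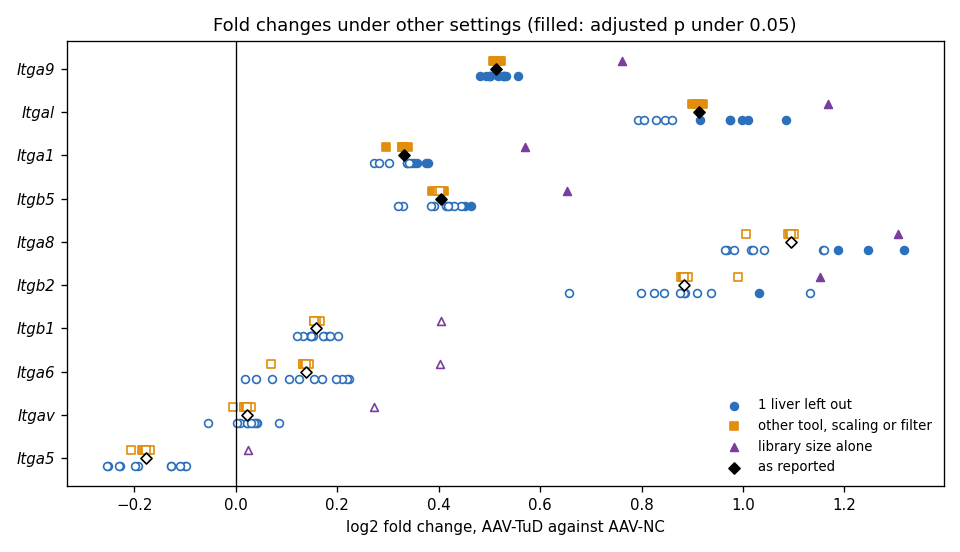
Log2 fold change of each described subunit as reported (black), with 1 liver left out (blue), with another tool, scaling or filter (orange) and with library size alone (purple). Filled symbols had an adjusted p under 0.05. *Itga9* is filled throughout, and *Itgb5* loses the call in 9 of 11 fits without 1 liver.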

How the data were processed

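Per the labels and the study's methods, the authors made 3′ end libraries (QuantSeq) from whole liver RNA, used BBDuk for trimming, STAR 2.5.3a for alignment to the mouse build GRCm38 and Rsubread for counting, and tested with DESeq2 1.38.3. The deposited values are raw read counts per gene. The annotation and the settings for strand and multi-mapping reads are not given in the sources used here, so overlapping genes can share reads. No column of the table was left unmapped.

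From these counts, those exceeding 10 reads in 5 livers or more entered edgeR 4.0.16 (R 4.3.3) with TMM factors, all 11 libraries and no covariate, with Benjamini-Hochberg adjustment over all tested genes. A gene with few reads in one group could enter through the livers of the other group alone. Standard errors were derived from the F statistic. Log2 CPM used a prior count of 2 and ratios a pseudocount of 0.5. Alternatives were DESeq2 1.42.0, other scalings and filters, limma 3.58.1 (voom) and leaving out each liver. The edgeR step was tested on simulated data. Totals were 8148531 to 12043959 reads per library, so genes with under 30 reads carry wide counting error.

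All 10 subunits were named, with every other subunit in the table, the 4 smallest p-values per direction among those that passed in each partner list, the most abundant gene of each marker list, and the 3 genes nearest in profile to the 3 described subunits with the smallest p. The subunits and lists were chosen with earlier results of these data known. Protein sequences were not analysed here.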

Additional observations from a re-analysis of the deposited data

Results flagged for a closer look

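*Itga1* in AAV-TuD replicate 10, the highest of its group at 55.6 CPM, stood apart from the other 5 AAV-TuD livers. Its gap to the nearest of them was 0.683 of the group's whole range on the log2 CPM scale. Among the 36 groups of values examined in this way, 1 stood out, and chance gives about 1.8.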

How the results depend on the processing

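Every fit kept at least 1 subunit higher and 0 lower. Leaving out single livers gave 1 to 5 subunits higher, 3 to 9 signalling genes higher and 0 to 2 ratios past the test. With library size alone the subunits' median log2 difference was 0.61, with 7 adaptors and 10 signalling genes higher, and voom gave 5 adaptors. Signs turned where values were near 0: *Itga5* to 0.024 with library size alone, *Itgav* to −0.0051 with voom and from −0.054 to 0.086 over single livers left out, and the log2 ratios *Itga6* to *Itgb1* (−0.15 to 0.024) and *Itgal* to *Itgb2* (−0.10 to 0.21). The cause was not tested. No paired analysis was made because the labels give no pairing of the livers. Depth limits *Itga5*, *Itga8* and *Itgb2*, whose counts stayed under 30 reads in each library.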
